A study of Rattus norvegicus with 12 samples.

Results

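Of 10 listed genes of the Toll-like receptor, inflammasome and NF-kappaB pathway, 9 were found among the 17268 genes of the count table. They are the receptors Tlr2 and Tlr4, the adaptor Myd88, the inflammasome genes Nlrp3, Pycard and Casp1, the NF-kappaB subunit Nfkb1 and the NF-kappaB inhibitor Nfkbia. The last is Nfkbiz, which encodes the related nuclear protein IkappaB-zeta. Tlr7 was not analysed here. The members were taken from a list of names and not by a threshold on measured values. The RNA came from the cerebral cortex of adult male Sprague Dawley rats, with 12 libraries in 4 groups of 3. Sham rats had the neck and artery surgery without a clot, and Model rats had a stroke caused by placing a rat blood clot in the middle cerebral artery. The rt-PA group had the same stroke and 10 mg/kg of recombinant tissue plasminogen activator, a clot-dissolving enzyme, into the tail vein at 6 h. The rt-PA+Acu group had the stroke, acupuncture at the Shuigou and Neiguan points at 2 h and the same rt-PA dose at 6 h. No library came from stroke with acupuncture alone, so acupuncture was compared only on top of rt-PA. The sources used here do not say when the cortex was taken for sequencing or from which side.

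Toll-like receptors bind microbial molecules and molecules released by damaged cells, and most of them signal through the adaptor MyD88 to kinases that release NF-kappaB from its inhibitor. Freed NF-kappaB enters the nucleus and switches on genes of cytokines, chemokines and adhesion molecules, together with genes that shut the signal down again. The inflammasome is a second arm, in which a sensor such as NLRP3 gathers the adaptor ASC (the product of Pycard) and caspase-1, which cuts the precursors of interleukin-1 beta and interleukin-18. In the brain these genes are read mainly in microglia, in endothelial cells and in leukocytes that enter the tissue, with lower levels in astrocytes and neurons.

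Promoters are shown because 3 of the members, Nfkb1, Nfkbia and Nfkbiz, belong to the NF-kappaB system themselves and carry the letters of an NF-kappaB element close to their start. RefSeq promoter windows of 300 bases, from 250 before to 50 after the start in the GRCr8 build, were matched for 9 of 9 members and searched on both strands for the NF-kappaB consensus of 10 letters. At least 1 match was found in 4 of 9 members (44.4%) and in 7.51% of 33469 windows. The 4 include Nfkb1, Nfkbia and Nfkbiz, because of which promoters are shown, so these shares are not an independent comparison. The windows of Tlr4, Myd88, Nlrp3, Pycard and Casp1 held no match. Matches are given below in capitals within 30 bases read along the gene's strand, with positions counted from the start. The 2 Tlr2 stretches lie at chr2:171504743-171504772 and chr2:171504580-171504609 on the minus strand, from -215 to -186 and from -52 to -23. The Nfkb1 stretch lies at chr2:226805440-226805469 on the minus strand (-7 to 23), that of Nfkbia at chr6:78597084-78597113 on the minus strand (-41 to -12) and that of Nfkbiz at chr11:58251698-58251727 on the plus strand (-23 to 7).
Tlr2, upper: aggcccttgGGGGAATTCCCatacggagcc
Tlr2, lower: ccctggcctgGGGACGTCCCcttcccgcac
Nfkb1: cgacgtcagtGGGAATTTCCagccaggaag
Nfkbia: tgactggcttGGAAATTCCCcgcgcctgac
Nfkbiz: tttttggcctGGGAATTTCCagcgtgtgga
Nfkb1 and Nfkbiz share the same 10 letters, and Nfkbia holds their reverse complement. This exact word, picked after the matches were seen, was present on either strand in 25 of 33469 windows (0.0747%). For Tlr2, Nfkb1 and Nfkbia, and also for Nlrp3 and Casp1, whose windows held no match, the listed start lies inside a longer RefSeq gene model, so another start can be in use in cortex. The model reaches 235 to 435 bases further upstream in Tlr2, Nfkb1 and Nfkbia, 1799 bases in Nlrp3 and 126492 bases in Casp1. A match is a run of letters and does not show binding.

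Values below are CPM, raw counts scaled to a common library size after TMM normalization, and the 3 values of a group are given in the order of its replicate numbers. Total counts per library lay between 11678450 and 13616935. Markers of the labelled tissue were present, with a summed level of 9 cortical excitatory neuron genes of 4730 to 5090 CPM in Sham. Markers of striatal neurons, which lie beneath the cortex, were present too and uneven among the Sham libraries, at a sum of 394 to 1140 CPM. Of these, 6 of 7 were DEGs and lower in Model than in Sham, beside 12% of all genes. The cortical sum was 1520 to 1820 CPM in Model, 1070 to 1600 in rt-PA and 2400 to 4380 in rt-PA+Acu. In bulk tissue, fewer cells of a type and less RNA per cell cannot be told apart. Model replicate 3, rt-PA replicate 2 and rt-PA+Acu replicate 3 differed from the rest of their groups more than the other libraries did. The chi-square statistic between 2 libraries of a group, per degree of freedom, was 12.6 for Model replicates 1 and 2 but 35.6 and 20.4 for the pairs with replicate 3. In rt-PA it was 16.7 for replicates 1 and 3, and 34.7 and 25.1 for the pairs with replicate 2. In rt-PA+Acu it was 20 for replicates 1 and 2, and 51.1 and 36.1 for the pairs with replicate 3. Without rt-PA replicate 2 the numbers of members called were those with it, 5 in rt-PA compared with Sham, 0 compared with Model and 5 in rt-PA+Acu compared with rt-PA. The genes were not all the same, since Tlr4 lost its call in the last of these. A gene was called differentially expressed (DEG) where edgeR's quasi-likelihood test on the 6 libraries compared gave an adjusted p under 0.05 and the log2 fold change was over 1 in size. Log2 fold changes carry their standard error (SE), and p-values were adjusted over all genes tested.

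In Model compared with Sham, 3 of the 9 members were DEGs, all higher (Myd88, Pycard and Nfkbiz), and 9.43% of 12884 genes were DEGs in that direction. At an adjusted p under 0.05 with no fold threshold, 5 members were higher, Tlr2 and Nfkb1 among them, beside 27.3% of all genes. The median log2 fold change of the members was 0.67, and that of all genes tested was 0.014. For 6 members all Model libraries lay above all Sham libraries, beside 32.1% of all genes. In rt-PA compared with Sham, 5 members were DEGs and all were higher (Tlr2, Tlr4, Myd88, Nlrp3 and Nfkbiz), where 11% of 13023 genes were DEGs in that direction. Adjusted p alone passed 8 of 9, beside 27.4% of all genes, and the median was 1.25 (0.003 over all genes). For 8 members the groups did not overlap, beside 32.9% of all genes. These comparisons share the Sham libraries.

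In rt-PA+Acu compared with rt-PA, 5 members were DEGs and all were lower (Tlr2, Tlr4, Myd88, Nfkbia and Nfkbiz), against 8.16% of 12999 genes. Nlrp3 and Nfkb1 also fell by adjusted p alone, giving 7 of 9 beside 17.7% of all genes, and the groups did not overlap for those 7, beside 26.5% of all genes. The median of the 9 was -1.20 (-0.003 over all genes). In rt-PA compared with Model, which asks what the late enzyme adds to the stroke, 0 members and 0 of 12941 genes were DEGs by edgeR (0%). At an unadjusted p under 0.05 there were 3 members (Tlr2, Tlr4 and Casp1), with 1284 of all genes (9.92%). DESeq2 also called 0 members there and 72 of all genes. The rt-PA libraries lay above all Model libraries for 3 members (Tlr4, Nlrp3 and Casp1), beside 7.84% of all genes. In rt-PA+Acu compared with Sham 0 members were DEGs by edgeR or DESeq2, where 2.06% of 12775 genes were. Nfkbia alone passed the adjusted p, and it was lower, beside 3.4% of all genes. It was also the 1 member whose rt-PA+Acu libraries all lay below all Sham libraries, beside 15.8% of all genes.

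**Figure D1:**
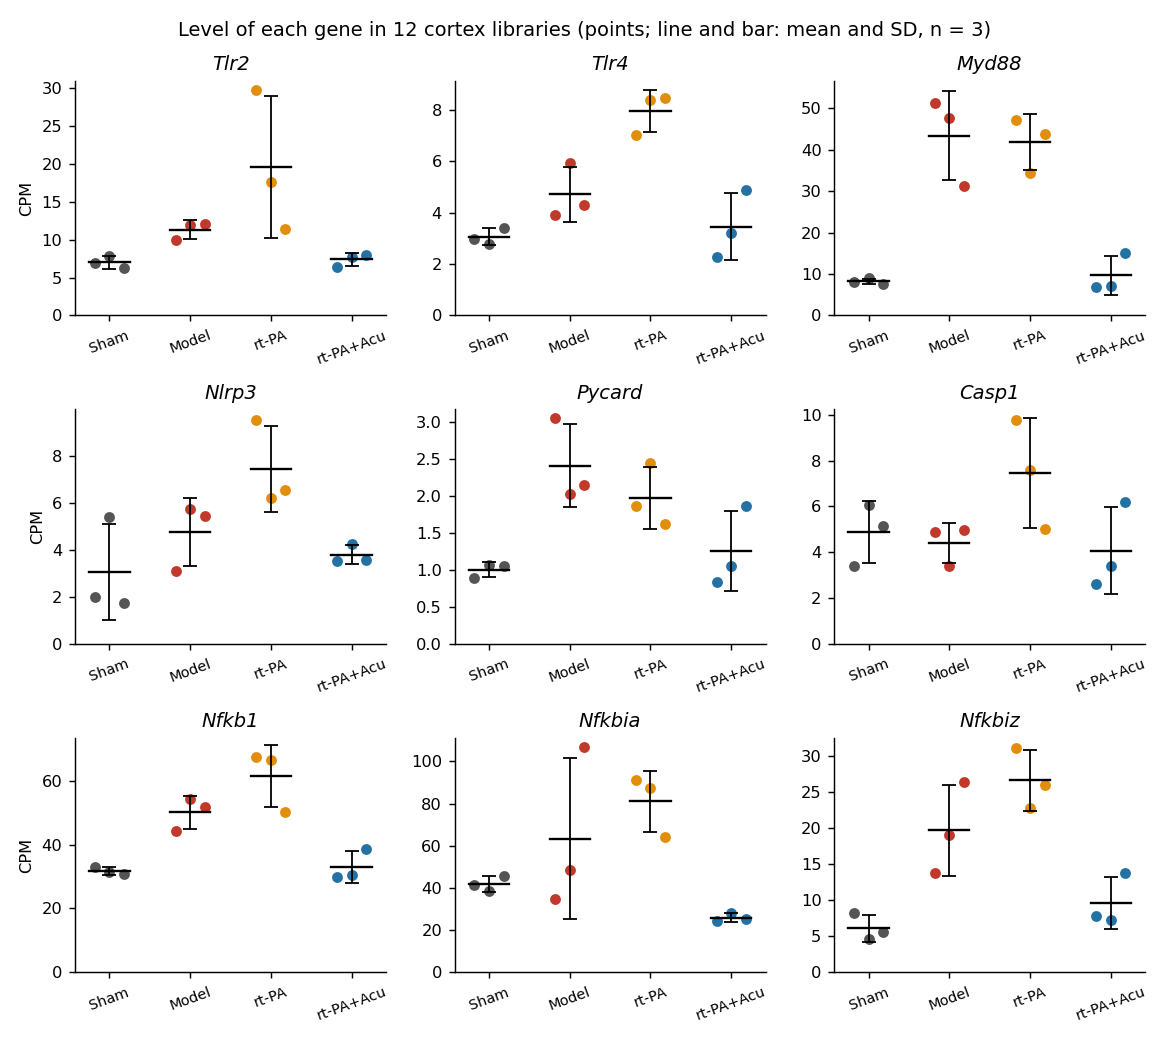
CPM of each of the 9 members in the 12 libraries, with 1 panel per gene, 1 point per library and a bar at the mean of each group. Myd88 separates the groups most widely, at 31.2 to 51.4 CPM in Model and rt-PA and 6.99 to 15.1 in Sham and rt-PA+Acu, and Nfkbia shows 1 Model library at 107 CPM.

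Tlr2, which recognises bacterial lipoproteins and several products of damaged tissue, was at 6.87, 7.88 and 6.20 CPM in Sham and at 9.92, 11.9 and 12.1 CPM in Model. The rt-PA libraries held 29.7, 17.6 and 11.4 CPM and the rt-PA+Acu libraries 6.40, 7.76 and 8.01 CPM. All 6 libraries of Model and rt-PA thus lay above all 6 libraries of Sham and rt-PA+Acu, and the rt-PA libraries were spread over a wider range than any other group. Tlr2 was 1.63-fold higher in Model than in Sham (log2 0.70, SE 0.18, adjusted p = 0.0115), 2.77-fold higher in rt-PA than in Sham (log2 1.47, SE 0.33, adjusted p = 0.00645) and 2.65-fold lower in rt-PA+Acu than rt-PA (log2 -1.41, SE 0.34, adjusted p = 0.0172). The estimate for rt-PA over Model, log2 0.79 (95% interval 0.04 to 1.55), had an adjusted p of 0.486. The fall in rt-PA+Acu rests in part on rt-PA replicate 1. Without that library it was log2 -0.98 with an adjusted p of 0.0383, so that the fold threshold was missed, and the adjusted p was 0.0591 without rt-PA+Acu replicate 1 and 0.0565 without replicate 2.

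The order of Tlr2 within rt-PA was also that of the summed neutrophil markers, and not that of the monocyte and macrophage markers. The summed level of 11 neutrophil markers was 89.4, 37.2 and 15.2 CPM in the rt-PA libraries, 7.58 to 12.1 in Sham, 5.11 to 18.8 in Model and 5.23 to 5.91 in rt-PA+Acu. Mmp9 was taken out of this sum after the values were seen, since it made up 84.9% to 94.3% of the full sum of 12 markers in Model. Of the listed neutrophil markers, Mpo and Elane had 0 counts in every library. Of the 12 markers, 5 of 6 tested were DEGs and higher in rt-PA than in Sham, beside 11% of all genes. In rt-PA+Acu 5 of 6 tested were DEGs and lower than in rt-PA, beside 8.16% of all genes. Markers with few counts outside rt-PA could enter these tests only through rt-PA, which fixed their direction beforehand. An example is Cxcr2, with 3 to 11 counts per library in Sham, 56 to 212 in rt-PA and 1 to 4 in rt-PA+Acu. The shares of all genes are therefore not a fair comparison for these marker counts. The full sum ranged from 11.9 to 17.0 CPM in Sham, 89.1 to 124 in Model, 121 to 160 in rt-PA and 24.2 to 31.0 in rt-PA+Acu. Monocyte and macrophage markers (10 of 12 in the table) summed to 955, 485 and 545 CPM in rt-PA, against 252 to 342 in Sham, 277 to 357 in Model and 174 to 245 in rt-PA+Acu. Most of this sum came from Fn1, Lyz2 and Vcan, with means of 273, 167 and 157 CPM in rt-PA. Its order therefore need not be that of the single markers. The part of these cells in the Tlr2 difference was not tested.

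Tlr4, the receptor of bacterial lipopolysaccharide, was low in all groups, at 2.99, 2.76 and 3.41 CPM in Sham and 3.89, 5.92 and 4.30 CPM in Model. It was at 7.00, 8.39 and 8.47 CPM in rt-PA and 2.27, 3.22 and 4.87 CPM in rt-PA+Acu. The groups rose in the order Sham, Model, rt-PA without overlap, while rt-PA+Acu spanned the Sham range and reached into that of Model. Only the outer step passed the test, at log2 1.37 for rt-PA over Sham (SE 0.21, adjusted p = 0.000991). Model over Sham gave 0.63 (95% interval 0.01 to 1.26, adjusted p = 0.0806) and rt-PA over Model 0.76 (0.20 to 1.32, adjusted p = 0.383). Tlr4 was 2.29-fold lower in rt-PA+Acu than rt-PA (log2 -1.20, SE 0.30, adjusted p = 0.021). That call was lost without rt-PA replicate 2 or 3 (adjusted p = 0.0516 and 0.0652) and without rt-PA+Acu replicate 1 or 2 (0.055 and 0.074).

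Myd88, through which Tlr2, Tlr4 and the interleukin-1 receptor all signal, had the largest log2 fold change of the members in Model and rt-PA compared with Sham and in rt-PA+Acu compared with rt-PA, but the smallest in rt-PA compared with Model. Sham libraries held 8.08, 8.96 and 7.69 CPM, Model libraries 51.4, 47.6 and 31.2 CPM and rt-PA libraries 47.3, 34.3 and 43.8 CPM. In rt-PA+Acu the values were 6.99, 7.06 and 15.1 CPM, with replicates 1 and 2 below every Sham library and replicate 3 above. It was 5.30-fold higher in Model than in Sham (log2 2.41, SE 0.21, adjusted p = 5.81e-05) and 5.01-fold higher in rt-PA than in Sham (log2 2.32, SE 0.16, adjusted p = 2.67e-05). Between rt-PA and Model the estimate was -0.05 (95% interval -0.53 to 0.43, adjusted p = 0.963). The level in rt-PA+Acu was 4.28-fold lower than in rt-PA (log2 -2.10, SE 0.32, adjusted p = 0.00393), and log2 -2.56 with replicate 3 left out. Against Sham, rt-PA+Acu gave 0.25 (-0.48 to 0.97, adjusted p = 0.684), and -0.24 without replicate 3.

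The receptor and its adaptor did not keep one ratio. Counts of Myd88 per count of Tlr2 were 1.18, 1.14 and 1.24 in Sham, 5.18, 3.99 and 2.57 in Model, 1.60, 1.94 and 3.83 in rt-PA, and 1.09, 0.91 and 1.89 in rt-PA+Acu. All Model and rt-PA libraries except rt-PA replicate 1 lay above every library of the other groups.

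Nlrp3, the inflammasome sensor, held 2.02, 5.43 and 1.75 CPM in Sham, 3.13, 5.75 and 5.45 CPM in Model, 9.57, 6.24 and 6.56 CPM in rt-PA, and 3.54, 4.27 and 3.59 CPM in rt-PA+Acu. All rt-PA libraries were above those of every other group, and Sham replicate 2 lay at the level of Model. Nlrp3 was 2.38-fold higher in rt-PA than in Sham (log2 1.25, SE 0.43, adjusted p = 0.0398), a call lost without any 1 of Sham replicate 1 or 3 or rt-PA replicate 1 or 3 (adjusted p = 0.0629 to 0.121). In Model compared with Sham the value was 0.64 (95% interval -0.43 to 1.70, adjusted p = 0.277), and without Sham replicate 2 it was 1.34 with an adjusted p of 0.0311. It was 1.96-fold lower in rt-PA+Acu than rt-PA (log2 -0.97, SE 0.25, adjusted p = 0.0224), just short of the fold threshold.

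Pycard, whose protein ASC links the sensor to caspase-1, had the fewest counts, 10 to 40 per library. Its values were 0.889, 1.07 and 1.05 CPM in Sham, 3.05, 2.03 and 2.15 in Model, 1.87, 2.44 and 1.62 in rt-PA, and 0.842, 1.05 and 1.87 in rt-PA+Acu. Model and rt-PA libraries were above all Sham libraries, and rt-PA+Acu replicate 3 lay within the rt-PA range. Pycard was 2.41-fold higher in Model than in Sham (log2 1.27, SE 0.35, adjusted p = 0.0154) and 1.94-fold higher in rt-PA than in Sham (log2 0.96, SE 0.33, adjusted p = 0.0398). The call in Model was lost without Sham replicate 1 (adjusted p = 0.0553) or Model replicate 1 (0.0593). For rt-PA+Acu against rt-PA the estimate was -0.64 (95% interval -1.60 to 0.31, adjusted p = 0.256).

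Casp1, the protease of the inflammasome, passed the test in 0 of the 5 comparisons. It was at 3.39, 6.05 and 5.15 CPM in Sham, 4.88, 3.38 and 4.96 in Model, 9.77, 7.60 and 5.01 in rt-PA, and 2.61, 3.40 and 6.21 in rt-PA+Acu. The Model and Sham libraries overlapped, and all rt-PA libraries lay above all Model libraries by a small margin. The estimates were -0.13 for Model over Sham (95% interval -0.81 to 0.54, adjusted p = 0.729), 0.60 for rt-PA over Sham (-0.12 to 1.32, adjusted p = 0.138) and 0.76 for rt-PA over Model (0.05 to 1.47, adjusted p = 0.474). For rt-PA+Acu over rt-PA it was -0.87 (-1.77 to 0.04, adjusted p = 0.121), and without rt-PA+Acu replicate 3 it was -1.30 with an adjusted p of 0.0265. Within the inflammasome the sensor, the adaptor and the protease differed in which comparisons they passed. Counts of Casp1 per count of Pycard were 3.82, 5.64 and 4.92 in Sham and 1.6, 1.67 and 2.31 in Model, without overlap, and 5.22, 3.12 and 3.09 in rt-PA and 3.1, 3.25 and 3.32 in rt-PA+Acu.

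Nfkb1, which encodes the p105 precursor of the p50 subunit, varied little between replicates. It was at 33.1, 31.4 and 30.7 CPM in Sham, 44.4, 54.4 and 51.6 in Model, 67.5, 66.6 and 50.1 in rt-PA, and 30.0, 30.4 and 38.7 in rt-PA+Acu. All Model and rt-PA libraries lay above all others. Nfkb1 was 1.59-fold higher in Model than in Sham (log2 0.67, SE 0.11, adjusted p = 0.00115), 1.91-fold higher in rt-PA than in Sham (log2 0.94, SE 0.13, adjusted p = 0.000612) and 1.86-fold lower in rt-PA+Acu than rt-PA (log2 -0.89, SE 0.16, adjusted p = 0.00707). These changes were under the fold threshold of the DEGs.

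Nfkbiz, whose protein IkappaB-zeta acts in the nucleus on a subset of NF-kappaB targets, was at 8.16, 4.59 and 5.59 CPM in Sham and 13.7, 19.0 and 26.3 CPM in Model. In rt-PA it was at 31.1, 22.7 and 26.0 CPM, and in rt-PA+Acu at 7.74, 7.23 and 13.7 CPM. Model and rt-PA lay above all Sham libraries, and rt-PA+Acu replicate 3 reached the lowest Model library. It was 3.23-fold higher in Model than in Sham (log2 1.69, SE 0.30, adjusted p = 0.00174), 4.30-fold higher in rt-PA than in Sham (log2 2.10, SE 0.23, adjusted p = 0.000218) and 2.77-fold lower in rt-PA+Acu than rt-PA (log2 -1.47, SE 0.27, adjusted p = 0.00707). Against Sham, rt-PA+Acu gave 0.65 (95% interval -0.09 to 1.39, adjusted p = 0.269).

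**Figure D2:**
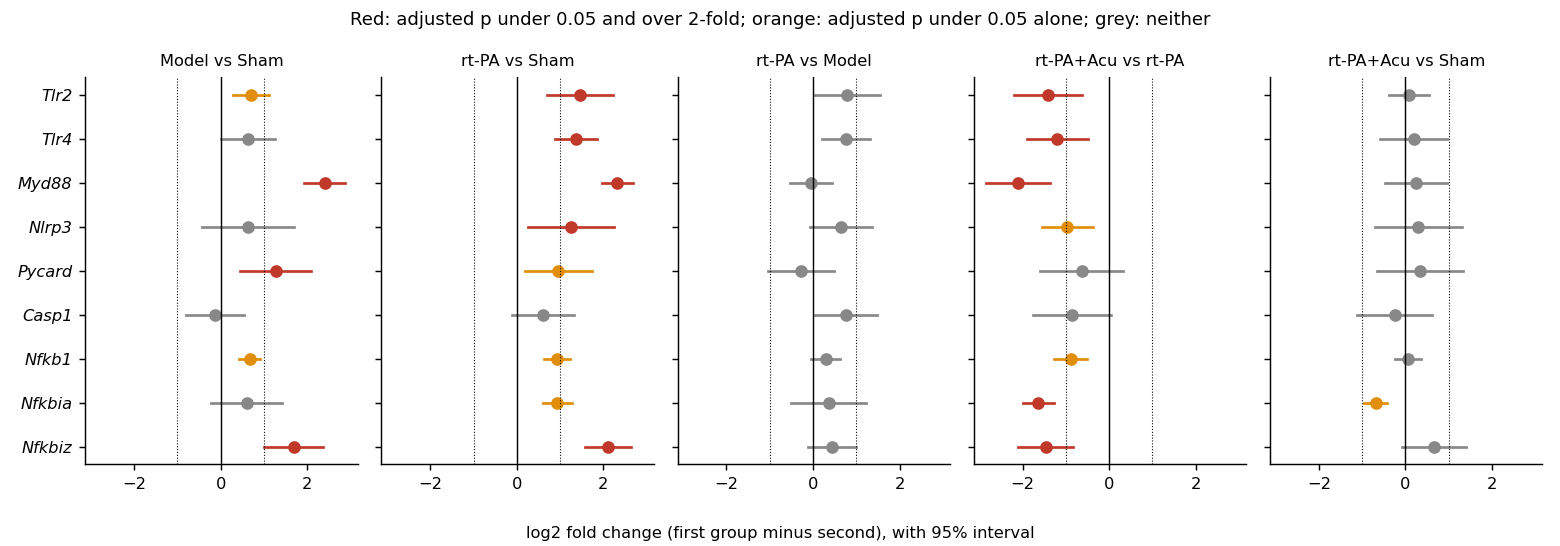
Log2 fold changes of the 9 members in the 5 comparisons, with 95% intervals derived from the edgeR test as bars and dashed lines at the fold threshold. In rt-PA+Acu compared with rt-PA all 9 estimates lie below 0, from -2.10 for Myd88 to -0.64 for Pycard, and in rt-PA+Acu compared with Sham the interval of Nfkbia alone leaves out 0.

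Nfkbia encodes IkappaB-alpha, which holds NF-kappaB in the cytoplasm and is itself one of its fast target genes. Its values were 41.5, 38.4 and 45.7 CPM in Sham, 34.8, 48.6 and 107 in Model, 91.2, 87.6 and 64.4 in rt-PA, and 24.3, 28.2 and 25.4 in rt-PA+Acu. Model replicates 1 and 2 lay close to the Sham range while replicate 3 was the highest of the 12 libraries, and all rt-PA+Acu libraries lay below all Sham libraries. Model over Sham was log2 0.60 (95% interval -0.21 to 1.41, adjusted p = 0.18) and 0.01 without Model replicate 3. It was 1.92-fold higher in rt-PA than in Sham (log2 0.94, SE 0.14, adjusted p = 0.000988). In rt-PA+Acu it was 3.12-fold lower than in rt-PA (log2 -1.64, SE 0.16, adjusted p = 0.00118). It was also 1.61-fold below Sham in rt-PA+Acu (log2 -0.69, SE 0.12, adjusted p = 0.0197). The last value lay between -0.75 and -0.62 in the 13 alternative fits, with adjusted p from 0.000235 to 0.22. It was over 0.05 in 5 of them, namely the fit over 12 libraries (0.22), the replicate block (0.0638) and the fits without Sham replicate 1, 2 or 3 (0.0779, 0.066 and 0.0833).

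Counts of Nfkbia per count of Nfkb1 in the same library were 1.25, 1.22 and 1.49 in Sham and 1.35, 1.31 and 1.29 in rt-PA. The ratio was lower in all of rt-PA+Acu (0.812, 0.928 and 0.658) and in Model replicates 1 and 2 (0.784 and 0.893), and it was 2.07 in Model replicate 3. The inhibitor and the subunit thus had close to the same ratio in Sham and rt-PA, and a lower one in rt-PA+Acu.

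Like Nfkbia, the summed level of endothelial markers was high in Model replicate 3 and all rt-PA libraries and low in all rt-PA+Acu libraries. Single markers differed, and so did the order of the libraries within Sham, rt-PA and rt-PA+Acu. In Model replicate 1 the sum lay above all Sham libraries while Nfkbia lay below them. The 7 markers of endothelial cells, the lining of blood vessels, that were in the table (of 10; Pecam1, Cdh5, Kdr, Tie1, Tek, Emcn and Vwf), summed to 279, 303 and 269 CPM in Sham, 307, 319 and 519 in Model, 594, 428 and 471 in rt-PA, and 182, 170 and 203 in rt-PA+Acu. In this sum, Model replicate 3 stood with rt-PA and all rt-PA+Acu libraries stood below Sham. In Model compared with Sham 3 of the 7 estimates were up and 4 down, with Kdr a DEG and higher (log2 2.84, adjusted p = 2.6e-05) and Emcn a DEG and lower (-1.25, adjusted p = 0.00189). Kdr was high in all Model libraries, at 94.6, 121 and 136 CPM against 12.8 to 20.5 in Sham, and not in replicate 3 alone. In rt-PA+Acu compared with Sham 2 of the 7 were DEGs, both lower, beside 1.14% of all genes: Pecam1 at log2 -1.08 (adjusted p = 0.00403) and Emcn at -1.51 (adjusted p = 0.00647), and the median was -0.72. Unlike Nfkbia, Emcn was also low in the other stroke groups, with means of 5.06 CPM for Model, 6.84 for rt-PA and 4.27 for rt-PA+Acu against 12.2 CPM for Sham. Against rt-PA, 4 of the 7 were DEGs, all lower, beside 8.16% of all genes, and the median was -1.04. Pecam1 alone was at 43.6, 46.0 and 38.4 CPM in Sham, 37.9, 43.7 and 118 in Model, 84.8, 64.8 and 76.2 in rt-PA, and 18.5, 20.7 and 21.2 in rt-PA+Acu. The part of the endothelial markers in the Nfkbia values was not tested.

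**Figure D3:**
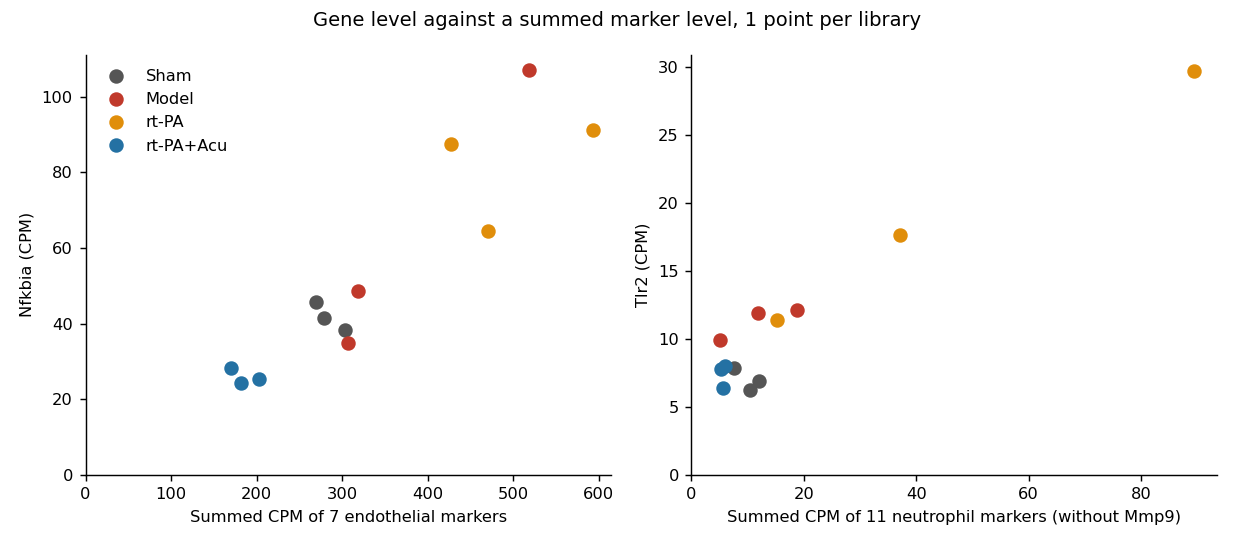
Left, Nfkbia (CPM) against the summed CPM of 7 endothelial markers; right, Tlr2 (CPM) against the summed CPM of 11 neutrophil markers without Mmp9, with 1 point per library coloured by group. The rt-PA+Acu libraries sit lowest on both axes at left, from 170 to 203 and from 24.3 to 28.2 CPM, and rt-PA replicate 1 sits alone at right at 89.4 and 29.7 CPM.

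Microglia, the resident macrophages of the brain, showed no such rise in their markers, of which 11 of 12 were in the table. They summed to 662 to 824 CPM in Sham, 546 to 664 in Model, 599 to 628 in rt-PA and 599 to 669 in rt-PA+Acu. Of 10 markers tested in Model compared with Sham, 1 was a DEG and higher and 4 were DEGs and lower, beside 9.43% and 12% of all genes.

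Counted library by library, the members lay above Sham together in rt-PA and were mixed in rt-PA+Acu. In rt-PA replicates 1 and 2, 9 of 9 members were above all Sham libraries, and in replicate 3 it was 8 of 9, beside 42.2% to 43.3% of 13298 genes. In Model the numbers were 6, 8 and 8 of 9, with 1, 1 and 0 members below all Sham libraries, beside 41% to 42.3% of all genes above and 40.2% to 42.6% below. In rt-PA+Acu replicate 1, 0 members were above all Sham libraries and 6 were below. Replicate 2 had 0 above and 3 below, and replicate 3 had 7 above and 1 below. Of all genes, 33.9%, 33.4% and 38.1% were above and 31.4%, 33.8% and 37.4% were below in these replicates. Without replicate 3 the members called in rt-PA+Acu compared with rt-PA numbered 7, and without replicate 1 or replicate 2 they numbered 3.

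Some members had profiles closer to each other than others. The distance used was the root mean square difference of log2 CPM over the 12 libraries after centring each gene on its own mean. It was smallest between Nfkb1 and Tlr2 (0.285), Nfkb1 and Tlr4 (0.292) and Nfkb1 and Pycard (0.328), and largest between Casp1 and Myd88 (1.05). Over 12744 candidate genes, the profile most like that of Nfkbia was Esam, an adhesion molecule of endothelial junctions, at 0.139, followed by Mmrn2, an endothelial matrix protein, at 0.205. The standard deviation of Nfkbia itself on this scale was 0.728. Esam was at 24.0, 23.4 and 26.4 CPM in Sham, 17.2, 24.3 and 52.5 in Model, 48.7, 38.7 and 31.7 in rt-PA, and 11.9, 16.9 and 14.2 in rt-PA+Acu, with the same high library in Model.

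The genes most like Myd88 were Tgfb2, a transforming growth factor (0.2), and the neuropeptide gene Npy (0.22), beside a standard deviation of 1.23 for Myd88. Tgfb2 was at 58.7, 69.8 and 61.7 CPM in Sham, 297, 316 and 269 in Model, 297, 229 and 230 in rt-PA, and 41.3, 43.2 and 109 in rt-PA+Acu, where replicate 3 again lay highest. For Tlr2 they were Myo1c (0.218) and Ninj1 (0.223), the latter a gene of membrane rupture in dying cells. For Tlr4 they were Fndc3b (0.227) and Cdk6 (0.257), for Pycard Nup93 (0.171) and Sap30 (0.175), and for Nfkbiz Fchsd1 (0.23) and Otulinl (0.242).

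A wider list of 81 genes of the same pathway was set beside the members, and 74 of them were in the table. Tlr8, Tlr13, Ticam1, Irak1, Tab3, Ikbkg and Naip6 were not analysed here. In Model compared with Sham 20 of 63 tested were DEGs and higher and 6 were lower, beside 9.43% and 12% of all genes, with a median log2 fold change of 0.37. In rt-PA compared with Sham the counts were 26 higher and 3 lower of 66, beside 11% and 11.6%, with a median of 0.74. Comparing rt-PA+Acu with rt-PA, 2 were higher and 26 lower of 65, beside 7.17% and 8.16%, with a median of -0.78. In rt-PA compared with Model 0 of 67 were DEGs by edgeR, with 14 at an unadjusted p under 0.05 beside 9.92% of all genes, and 1 was by DESeq2. Comparing rt-PA+Acu with Sham, 0 of 59 were, with 8 at an unadjusted p under 0.05 beside 23.2% of all genes, and 3 were by DESeq2. There edgeR tested only 7 of the 12 NF-kappaB target genes. Ccl2 was not among them, with 0 counts in Sham and 1 to 142 per library in rt-PA+Acu. In every comparison, genes with few counts in 1 group could enter only through the group where they were high. This also holds for the counts by role below.

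**Figure D4:**
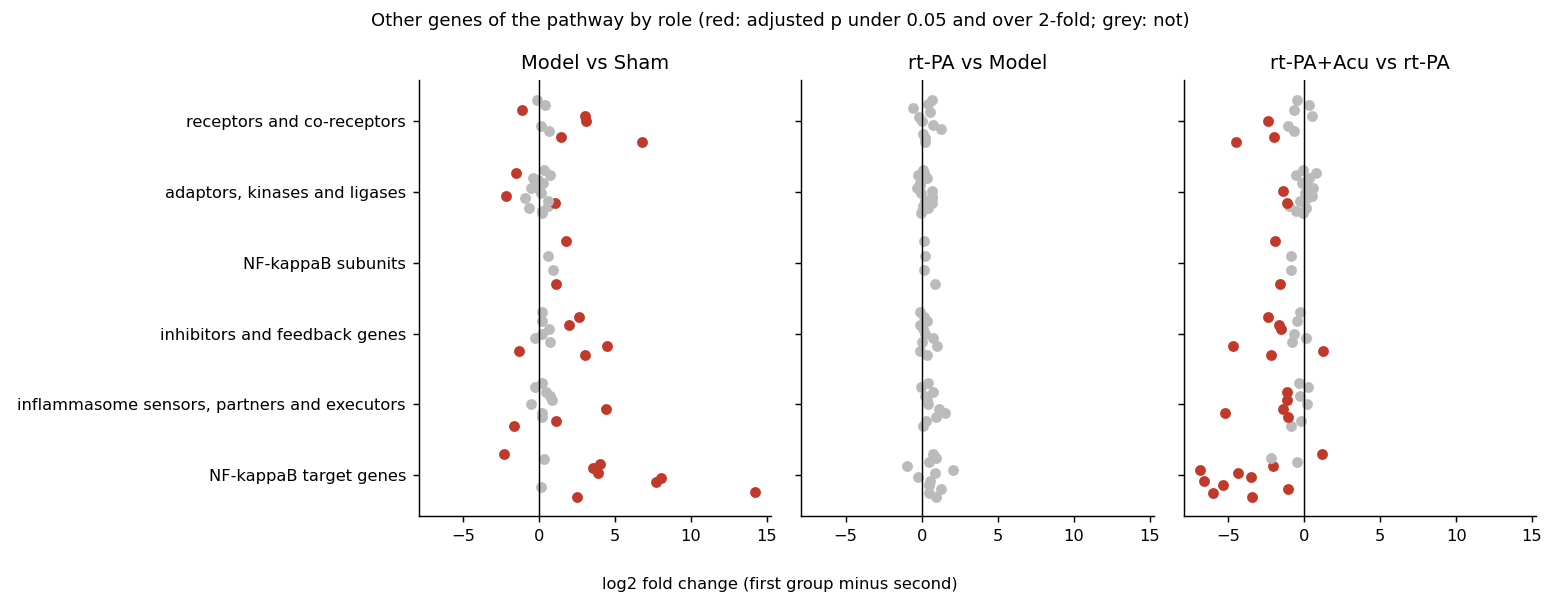
Log2 fold changes of the wider pathway list by role, in Model compared with Sham, rt-PA compared with Model and rt-PA+Acu compared with rt-PA. Each tested gene has 1 point, red where it is a DEG and grey where it is not. Target genes have the largest share of DEGs. Some of them entered a test only through the group where they were high, which fixed their direction. In Model 7 of 10 targets are higher (9.43% of all genes), and in rt-PA+Acu 9 of 12 are lower (8.16%). Adaptors, kinases and ligases hold 3 of 18 and 2 of 18 in either direction, beside 21.5% and 15.3% of all genes.

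Among receptors and co-receptors, 4 of 9 tested were higher in Model than in Sham and 1 was lower, beside 9.43% and 12% of all genes. In rt-PA+Acu 3 of 9 were lower than in rt-PA, beside 8.16% of all genes. Cd14, which hands lipopolysaccharide to Tlr4, led both comparisons. It was at 0.647, 0.612 and 1.22 CPM in Sham, 96.8, 75.9 and 101 in Model, 95.2, 119 and 98.9 in rt-PA, and 0.926, 2.79 and 9.96 in rt-PA+Acu. Cd14 differed by log2 6.80 in Model over Sham (SE 0.23, adjusted p = 3.41e-06), -4.49 in rt-PA+Acu over rt-PA (SE 0.64, adjusted p = 0.00316) and 2.48 in rt-PA+Acu over Sham (adjusted p = 0.123). Tlr1, which pairs with Tlr2, rose by log2 3.09 in Model and fell by 2.40 in rt-PA+Acu compared with rt-PA. The interleukin-1 receptor gene Il1r1 rose by 1.47 and fell by 1.98, and Tlr3, a receptor for double-stranded RNA, was lower in Model (log2 -1.14).

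Among the adaptors, kinases and ligases between receptor and NF-kappaB, 1 of 18 was higher and 2 were lower in Model compared with Sham, beside 9.43% and 12% of all genes. In rt-PA+Acu 2 of 18 were lower compared with rt-PA, beside 8.16%, and these shares were near the background. Irak3, a kinase family member that damps the signal, rose by log2 1.06 and fell by 1.15. Irf7, a regulator of interferon genes, was lower in Model at log2 -2.18 (SE 0.80, adjusted p = 0.0457). Its Sham values were 2.02, 14.3 and 1.92 CPM and its Model values 1.07, 1.44 and 1.49 CPM, so that Sham replicate 2 alone was far above Model. Map3k8, a kinase that acts downstream of the receptors, was at 7.35, 7.53 and 6.85 CPM in rt-PA and 1.94, 3.83 and 2.47 CPM in rt-PA+Acu (log2 -1.40, SE 0.29, adjusted p = 0.0104).

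Of the 4 other NF-kappaB subunits, 2 were DEGs and higher in Model, beside 9.43% of all genes. In rt-PA+Acu compared with rt-PA 2 were DEGs and lower, beside 8.16%. In both cases they were Nfkb2 and Relb, the pair of the alternative pathway. By adjusted p alone all 4 were higher in Model, beside 27.3% of all genes, with Rela at log2 0.56 (adjusted p = 0.00531) and Rel at 0.89 (adjusted p = 0.0223). Rela, which pairs with the product of Nfkb1, was also lower in rt-PA+Acu compared with rt-PA (log2 -0.90, adjusted p = 0.00279). There 3 of 4 passed and were lower, beside 17.7% of all genes. Relb was at 1.37, 2.76 and 1.92 CPM in Sham, 4.81, 6.26 and 9.42 in Model, 9.08, 7.32 and 6.04 in rt-PA, and 0.842, 1.31 and 3.74 in rt-PA+Acu. It rose by log2 1.76 in Model (SE 0.36, adjusted p = 0.00387) and was lower in rt-PA+Acu than rt-PA at -1.91 (SE 0.51, adjusted p = 0.0245).

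Inhibitors and feedback genes were higher in 4 of 11 cases in Model, beside 9.43% of all genes. They were lower in 5 of 11 in rt-PA+Acu compared with rt-PA, beside 8.16% of all genes. Tnfaip3, which encodes the deubiquitinating enzyme A20, rose by log2 1.94 and fell by 1.67. Bcl3, Tnip2 and the interleukin-1 receptor antagonist gene Il1rn were likewise higher in Model and lower in rt-PA+Acu. Il1rn was at 0.97, 0.23 and 1.14 CPM in Sham, 12.1, 24.0 and 16.4 in Model, 45.1, 44.6 and 13.9 in rt-PA, and 0.926, 0.784 and 2.25 in rt-PA+Acu (log2 4.50 and -4.67, adjusted p = 0.000134 and 0.0021). Cyld, a deubiquitinating enzyme that restrains NF-kappaB, moved the other way, at log2 -1.30 in Model and 1.22 in rt-PA+Acu compared with rt-PA.

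Of the other inflammasome genes, 2 of 11 were higher and 1 was lower in Model, beside 9.43% and 12% of all genes. These small counts were near the background. In rt-PA+Acu 5 of 11 were lower compared with rt-PA, beside 8.16% of all genes. The latter were Nlrp1a (log2 -1.16), Mefv (-1.39), Il1b (-5.21), Il18 (-1.06) and Ninj1 (-1.15). Casp4, the caspase that senses lipopolysaccharide in the cell, was higher in Model (log2 1.09) and Aim2, a DNA sensor, was lower (-1.67). Aim2 was near the floor, with 13 to 21 counts per library in Sham and 2 to 9 in Model. Il18, a substrate of caspase-1, was not a DEG in Model (log2 0.19, adjusted p = 0.716) and was higher in rt-PA than in Sham (1.13, adjusted p = 0.00702). Il1b, the other substrate, was a DEG and higher in Model, at log2 4.40 with 0 to 6 counts per library in Sham. It was at 0.485, 0 and 0 CPM in Sham, 0.916, 6.00 and 3.97 in Model, 15.1, 11.9 and 4.35 in rt-PA, and 0.337, 0.261 and 0.225 in rt-PA+Acu.

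NF-kappaB target genes held the largest shares, with 7 of 10 tested higher in Model than in Sham (Il6, Ccl2, Cxcl1, Cxcl2, Icam1, Ptgs2 and Birc3), beside 9.43% of all genes. Against rt-PA, 9 of 12 were lower in rt-PA+Acu, beside 8.16% of all genes. Some targets entered a test only through the group where they were high, which fixed their direction. In Sham, Ccl2 had 0 counts, Cxcl1 at most 3 and Cxcl2 at most 1 per library. In rt-PA+Acu, Cxcl2 had at most 3 and Nos2 at most 2. The shares of the target genes are therefore not a fair comparison with all genes. The monocyte attractant Ccl2 had 0 counts in all Sham libraries and 160, 277 and 145 CPM in Model, which is at least 794-fold higher when Sham is set to 3 counts per library. It was at 387, 261 and 150 CPM in rt-PA and 0.0842, 1.05 and 10.6 CPM in rt-PA+Acu (log2 -6.03, SE 1.01, adjusted p = 0.0053). Nos2, the inducible nitric oxide synthase, was at 19.5, 10.3 and 2.21 CPM in rt-PA and at least 43.3-fold lower in rt-PA+Acu on the same floor. Vcam1, an endothelial adhesion molecule, ran against the rest, at log2 -2.34 in Model and 1.20 in rt-PA+Acu compared with rt-PA.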

How the data were processed

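The authors aligned paired-end reads of poly(A) RNA, from a kit that marks strand and adapters with molecular identifiers, to the rat build mRatBN7.2 with STAR 2.7.10a. The deposited file holds whole-number raw counts per gene symbol, without normalization or pooling. The methods name Salmon 1.9.0 for counting, and the submitters' processing notes also name featureCounts 2.0.1. Use of strand and identifiers in counting is not given in the sources used here, so antisense reads cannot be told apart, and floors cover counting error only. The labels do not state that replicates are separate animals, so p-values measure only the spread between these libraries.

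Counts were fitted with edgeR 4.0.16 in R 4.3.3, for each of 5 comparisons on its own 6 libraries, with TMM, filterByExpr, the quasi-likelihood test (glmQLFit, glmQLFTest) and Benjamini-Hochberg adjustment over all genes tested. All 9 members passed filterByExpr in every comparison. CPM were scaled by TMM over 12 libraries, and log2 CPM had a prior count of 2. The scripts were tested on simulated data. Alternatives were DESeq2 1.42.0, RLE size factors, library size alone, 1 fit over 12 libraries, a minimum of 10 counts in every library, no minimum but 1 count, no fold threshold, the replicate number as a block and each library left out. Where a group had at most 3 counts in each library, the fold was computed against 3 counts per library.

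Besides the members, genes were named that had the largest absolute change of their role among DEGs at a mean of at least 1 CPM, in Model vs Sham or rt-PA+Acu vs rt-PA, and the 2 genes most like each member called there. Other pathway genes and ratios were named after their values were seen. Members and lists were chosen with earlier results of these data known. Promoter sequences are from RefSeq (GRCr8). Plots were drawn with matplotlib.

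Replicate numbers did not pair the libraries: of 18 same-number correlations of deviations from group means, from -0.254 to 0.146, 3 were over 0.1.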

Additional observations from a re-analysis of the deposited data

How the results depend on the processing

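Of 585 member values under the alternatives, 549 kept their direction and side of the threshold, 13 lost the call, 13 gained it and 10 changed sign. Myd88 and Nfkbiz were called for Model vs Sham, rt-PA vs Sham and rt-PA+Acu vs rt-PA, and Nfkbia for the last, in all 13 alternatives. With at least 10 counts in every library the pathway DEGs went from 26 to 15 for Model vs Sham, from 29 to 18 for rt-PA vs Sham and from 28 to 17 for rt-PA+Acu vs rt-PA, since fewer genes were tested. Without the fold threshold the members called were 5 for Model vs Sham, 8 for rt-PA vs Sham and 1 for rt-PA+Acu vs Sham, and all genes called were 6951, 7127 and 651, with 4522 for rt-PA+Acu vs rt-PA, against 2765, 2940, 263 and 1993. With library size alone 8 members were called in rt-PA vs Sham. DESeq2 called 1 pathway gene and 72 of all genes in rt-PA vs Model, and 3 and 426 in rt-PA+Acu vs Sham. The fit over 12 libraries called 2 genes in rt-PA vs Model. The cause was not tested where none is given.

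With 1 library left out, members called ranged from 2 to 4 in Model vs Sham, 4 to 7 in rt-PA vs Sham, 0 to 0 in rt-PA vs Model, 3 to 7 for rt-PA+Acu vs rt-PA, 0 to 0 in rt-PA+Acu vs Sham. Pathway DEGs ranged from 24 to 26, 28 to 34, 0 to 0, 20 to 31 and 0 to 3 in the same order, with 3 without rt-PA+Acu replicate 1. All genes called ranged from 2511 to 3133, 2708 to 3206, 0 to 3, 1445 to 2510 and 82 to 359. In rt-PA vs Model it was 3 without Model replicate 3, 1 without rt-PA replicate 1 and 2 without rt-PA replicate 3. In rt-PA+Acu vs Sham it was 146, 82 and 133 without Sham replicates 1, 2 and 3. Changes of sign were seen in values that passed no test. Casp1 in Model vs Sham ranged from -0.34 to 0.05, with 0.05 and 0.03 without Sham or Model replicate 2. Myd88 in rt-PA vs Model was 0.00 with library size alone and ranged from -0.25 to 0.09. In rt-PA+Acu vs Sham without rt-PA+Acu replicate 3, Tlr4 was -0.15, Myd88 -0.24, Pycard -0.09 and Nfkb1 -0.08, where the highest values were 0.42, 0.44, 0.55 and 0.13.

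The same replicate number gave the highest correlation in 12 of 36 combinations, so the numbers were treated as names. With the replicate block the members called were 3, 5, 0, 5 and 0, pathway DEGs 25, 29, 0, 25 and 0, and all genes called 2756, 2913, 0, 1862 and 194, in the order above. Pycard rests on 10 to 40 counts per library, so its counting error is wide.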

Other observations

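Other marker lists moved between the groups too, and the part of these cells in the member values was not tested. Astrocyte markers summed to 5540 to 6370 CPM in Sham, 4650 to 6470 in Model, 5010 to 5960 in rt-PA and 6290 to 7950 in rt-PA+Acu. Oligodendrocyte markers summed to 12500 to 18600 CPM in Sham, 1860 to 9020 in Model, 2890 to 12200 in rt-PA and 3470 to 22000 in rt-PA+Acu. Striatal neuron markers (7 of 8 in the table) summed to 394 to 1140 CPM in Sham, 233 to 324 in Model, 185 to 278 in rt-PA and 250 to 348 in rt-PA+Acu. Choroid plexus markers, 6 in all, summed to 2.02 to 3.83 CPM in Sham, 11.2 to 48.6 in Model, 10.8 to 69.5 in rt-PA and 3.49 to 15.4 in rt-PA+Acu. Of the red blood cell markers 1 of 6 was in the table, Ahsp, at 1.57 to 3.31 CPM in Sham, 0.845 to 1.57 in Model, 0.789 to 1.46 in rt-PA and 0.749 to 1.85 in rt-PA+Acu.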
